A study of Mus musculus with 14 samples.

Results

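The histone genes on the array comprised 46 of 27962 gene names, measured by 66 of 41174 gene probes. They were every gene probe whose name in the files began with Hist1h, Hist2h, Hist3h, Hist4h, H2af, H3f3 or H1f, with the oocyte linker histone H1foo left out. The names split them into 34 replication-dependent genes with 44 probes and 12 variant genes with 22 probes. The replication-dependent probes covered the linker histone H1 (8 probes of 6 genes) and the core histones H2A (15 of 11), H2B (10 of 8), H3 (3 of 3) and H4 (8 of 6). The variant probes covered H1 (6 probes of 3 genes), H2A (11 of 7) and H3 (5 of 2).

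Total RNA of mouse blastocysts at E4.0 was amplified in 2 rounds, labelled with Cy3 and hybridised to 1-colour Agilent arrays, 1 array per sample. The study asked whether the way a donor nucleus is brought into the egg changes the transcriptome of clones. There were 4 clones made by fusing a cumulus cell with an enucleated oocyte (fusion clones), 4 clones made by injecting a cumulus cell nucleus (injection clones), 3 male (XY) and 3 female (XX) embryos from in vitro fertilisation (IVF). The clones are labelled female, so the XX IVF embryos were the sex-matched controls. All embryos were cultured in KSOM medium. The methods describe BDF1 mice, a cross of C57BL/6N and DBA/2, as the source of recipient oocytes and of control embryos, and cumulus cells from BDF1-background mice heterozygous for an Xist deletion; the sources do not say whether these donors also served for the blastocyst clones. The extraction text of the labels speaks of single embryos and of epiblast or extraembryonic regions although the samples are labelled blastocyst, and whether each sample was 1 embryo is not given. Each p-value therefore measures the spread between these samples, which may in part be technical.

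Each group lay on a slide of its own, and the clone arrays came from another scanner model and software version than the IVF arrays, so that slide, scanner and group cannot be told apart. Between 57.6% and 65.2% of gene probes were above background on an array, and the small number of arrays limits the precision. Of 21 probes for 13 blastocyst markers such as Pou5f1, Cdx2 and Krt18, 18 or 19 were above background on any array of a group. On every array of a group it was 13 in fusion clones, 14 in injection clones and 17 each in XY and XX embryos. Their summed linear signal was 1069209 to 1354341, 1019423 to 1287206, 1336229 to 1432645 and 1234593 to 1549634 in the same order. No marker probe was called in either clone comparison. Differences from XX embryos ran from -3.09 to 1.08 in fusion and from -4.79 to 1.11 in injection clones. Of 24 probes for 16 cumulus cell markers, 10 to 13 were above background on any array of a group, and their summed linear signal was 1379 to 3267 in fusion clones, 1955 to 2914 in injection clones, 1262 to 2744 in XY and 1214 to 1543 in XX embryos. Amhr2 and Foxl2 were above background on all 14 arrays, Cyp19a1 on up to 11 and Fshr on 10, while the cumulus expansion genes Has2, Ptx3 and Tnfaip6 were above it on at most 3 arrays and Lhcgr, the luteinising hormone receptor gene, was at the floor of the scale on every array. The brightest cumulus marker, Amhr2, averaged 10.38 in fusion clones, 10.80 in injection clones and 9.03 in XX embryos (log2 signal; adjusted p = 0.165 and 0.0839). Oocyte markers summed to 458 to 1723, 1526 to 2187, 1151 to 2312 and 926 to 1404 in the same order of groups. The part of residual cumulus or oocyte RNA in the histone results was not tested.

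Histones package DNA into nucleosomes. The replication-dependent genes lie in clusters, are transcribed in S phase and give mRNAs that end in a conserved stem-loop, bound by the stem-loop binding protein SLBP, in place of a poly(A) tail. Most variant genes are transcribed throughout the cell cycle as ordinary polyadenylated mRNAs, and variant proteins such as H3.3 and H2A.Z replace the canonical histones outside replication. Amplification kits of the kind used here prime cDNA synthesis from poly(A) tails, so an array signal for a replication-dependent gene may stem from polyadenylated forms, from internal priming or from read-through transcripts. Which of these the arrays measured was not tested. Many genes of a histone type have near-identical coding sequences, so a probe named for one gene may also bind mRNA of its paralogs, and the probe sequences were not used here.

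The 5 promoters shown here belong to 3 replication-dependent H2A genes, on chr13 and chr3, and to both genes for H3.3. Probes named for these H2A genes were called higher in fusion clones, and the called H3.3 probes lay in opposite directions. The array files place the Hist2h2ac probe beside the Hist2h2aa1 probe and on the strand opposite to the Hist2h2ac gene. Each is the 250 bases before the transcription start of RefSeq on build GRCm38.p6, and capitals mark, on either strand, the TATA box in its form TATAAA, the box known by its letters CCAAT, and the octamer bound by Oct1, ATTTGCAT. The windows are chr13:23934187-23934436 (plus strand) for Hist1h2aa, chr3:96220881-96221130 (minus strand) for Hist2h2ac, chr3:96245247-96245496 (plus strand) for Hist2h2aa1, chr1:180813606-180813855 (minus strand) for H3f3a and chr11:116024505-116024754 (minus strand) for H3f3b.
Hist1h2aa: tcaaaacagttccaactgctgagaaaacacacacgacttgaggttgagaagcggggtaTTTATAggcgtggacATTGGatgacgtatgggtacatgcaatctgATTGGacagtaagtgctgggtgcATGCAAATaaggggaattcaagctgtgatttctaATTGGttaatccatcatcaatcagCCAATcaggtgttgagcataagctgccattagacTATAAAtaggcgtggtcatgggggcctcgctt
Hist2h2ac: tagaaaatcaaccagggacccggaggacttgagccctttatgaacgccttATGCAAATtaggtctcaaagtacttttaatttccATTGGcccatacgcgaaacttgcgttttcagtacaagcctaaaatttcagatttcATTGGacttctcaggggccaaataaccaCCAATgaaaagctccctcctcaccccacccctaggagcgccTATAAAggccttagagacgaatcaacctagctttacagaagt
Hist2h2aa1: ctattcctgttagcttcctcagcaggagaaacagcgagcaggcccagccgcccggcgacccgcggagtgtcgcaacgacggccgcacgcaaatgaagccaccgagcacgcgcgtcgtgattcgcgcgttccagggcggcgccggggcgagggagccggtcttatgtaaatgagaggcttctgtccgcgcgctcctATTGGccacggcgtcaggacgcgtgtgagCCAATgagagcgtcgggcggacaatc
H3f3a: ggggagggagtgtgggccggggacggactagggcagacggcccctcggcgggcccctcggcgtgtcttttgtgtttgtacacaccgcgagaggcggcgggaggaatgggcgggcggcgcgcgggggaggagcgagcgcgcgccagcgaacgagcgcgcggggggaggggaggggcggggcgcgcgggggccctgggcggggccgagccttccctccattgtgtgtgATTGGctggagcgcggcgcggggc
H3f3b: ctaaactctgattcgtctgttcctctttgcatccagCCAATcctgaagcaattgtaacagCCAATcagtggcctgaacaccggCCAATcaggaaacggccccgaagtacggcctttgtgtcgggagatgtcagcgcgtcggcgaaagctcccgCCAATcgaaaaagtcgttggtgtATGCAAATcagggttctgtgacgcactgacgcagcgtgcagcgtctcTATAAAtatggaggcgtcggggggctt

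RefSeq gave promoters for 29 of the 34 replication-dependent genes (30 promoters, as a gene can have more than 1) and for 10 of the 12 variant genes. A TATA box stood in 16 of the 30 replication-dependent promoters (53.3%) and in 12.4% of all 32851 promoters. A CCAAT box stood in 26 (86.7%), against 33.8% of all promoters, and an octamer in 10 (33.3%), against 1.60%. The octamer was found in 6 of 11 H2A and 4 of 6 H2B promoters and in none of the H1, H3 and H4 promoters, and Oct1-type sites are textbook elements of H2B promoters. Among the 10 variant promoters, 5 held a CCAAT box, and H3f3b alone held a TATA box and an octamer. The H3f3a window held only a CCAAT box. A match is a description of letters in this window, not a binding site. The testis- and oocyte-type pair Hist1h2aa and Hist1h2ba lay head to head with 280 bases between their starts, so that their windows overlap.

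Signals were quantile-normalized, raised to a floor of 16 and given as log2 values, so that a value of 4 is at the floor. A difference is the difference of group means on that log2 scale, and a probe was called where its adjusted p in limma, adjusted over all probes tested, was below 0.05. Of the probes, 31 replication-dependent and 16 variant ones were above background on all 14 arrays, 12 and 6 on some, and 1 replication-dependent probe, A_52_P660466 for Hist1h1d, on none. Levels are compared only between arrays for the same probe, since probes differ in brightness for reasons other than mRNA amount.

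In fusion clones, 8 of 40 tested replication-dependent probes were higher than in XX embryos and 0 were lower. Over all 32458 probes tested, 4.32% were called higher and 5.17% lower. All 8 were H2A probes, out of 14 tested H2A probes. They were named for 7 genes: Hist1h2aa, Hist1h2af (2 probes), Hist1h2ai, Hist1h2ak, Hist2h2aa1, Hist2h2ac and Hist3h2a. The array files place the Hist2h2ac probe on the plus strand beside the Hist2h2aa1 probe, whereas RefSeq has Hist2h2ac on the minus strand. They place the Hist1h2ai probe on the minus strand, whereas RefSeq has that gene on the plus strand. Which genes these probes measured was not tested. In injection clones, 4 of 41 replication-dependent probes were higher and 0 were lower, against 1.53% higher and 2.14% lower of 32840 probes. These 4, for Hist1h2af, Hist1h2ai, Hist1h2ak and Hist2h2aa1, were also among those called in fusion clones. All 4 calls in injection clones were lost with a floor of 1, with no filter on dim probes, and without injection clone 1, 2 or 3 or any XX embryo. Both comparisons used the same 3 XX embryos, so they are not independent, and probes that may bind the same mRNAs do not count as separate genes. In such bulk samples fewer cells of a type and less RNA per cell cannot be told apart.

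**Figure D1:**
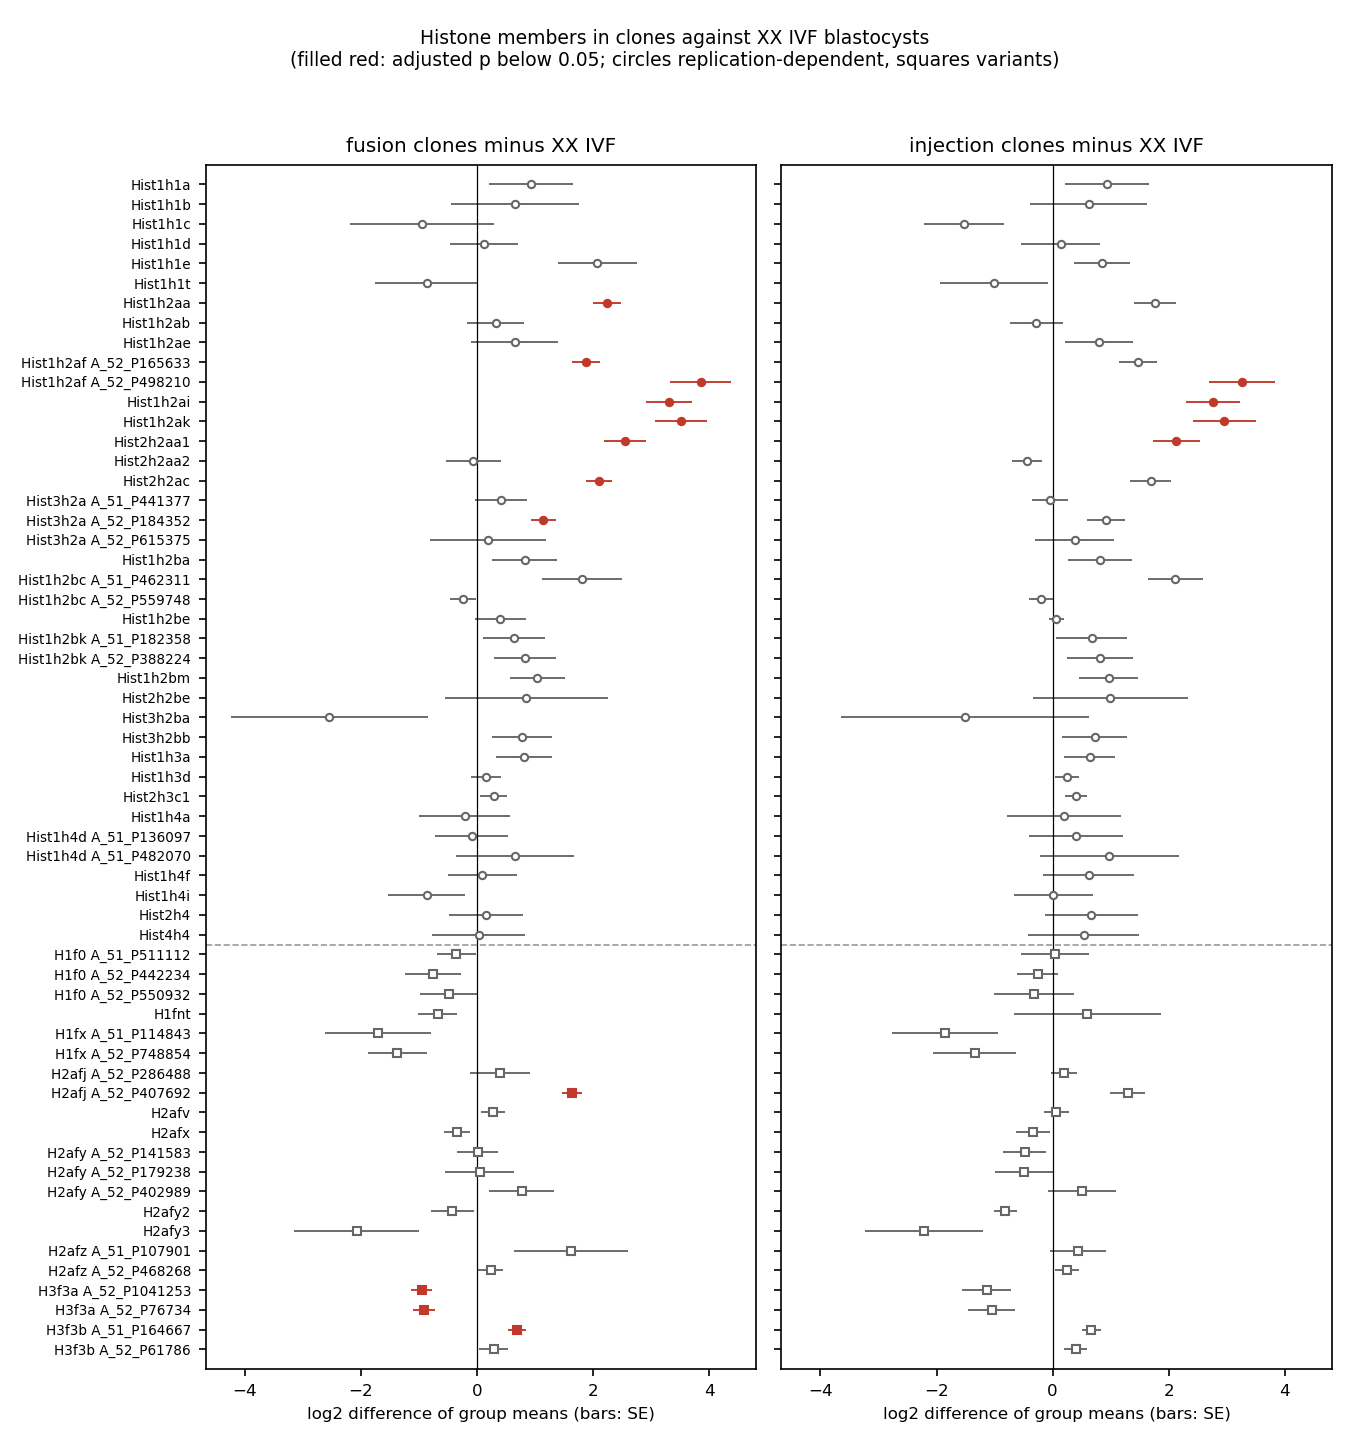
Log2 difference of group means from XX IVF embryos for each of the histone probes tested in both comparisons (x axis, log2), fusion clones on the left and injection clones on the right. Points are probes, bars are standard errors, circles above the dashed line are replication-dependent, squares below it are variants, and filled red marks an adjusted p below 0.05. The red circles are all H2A probes, 8 in fusion and 4 in injection clones, and H3f3a and H3f3b lie on opposite sides of 0.

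The median difference of the replication-dependent probes was 0.65 in fusion clones, with 32 of 40 probes above 0, and 0.67 in injection clones, with 34 of 41 above 0. The median of all probes tested was -0.12 and -0.08. Variant probes had medians of -0.34 and -0.26, with 10 of 21 above 0 in both comparisons. Without H2A, the replication-dependent median was 0.35 in fusion clones (19 of 26 above 0) and 0.62 in injection clones (23 of 27 above 0), and no probe was called in limma. As a description of 31 replication-dependent and 16 variant probes above background everywhere, the replication-dependent median minus the variant median on an array was -3.97 to -2.41 in fusion clones, -3.59 to -2.28 in injection clones, -4.51 to -3.98 in XY and -5.16 to -3.40 in XX embryos. The probe sets were the same on every array, so only the change between arrays can be read, and the clones overlapped the XX embryo with the value of -3.40. Over all 44 and 22 member probes the clones overlapped both kinds of IVF embryo, at -4.28 to -2.68 in fusion clones, -3.74 to -2.77 in injection clones, -4.55 to -3.67 in XY and -4.67 to -2.81 in XX embryos.

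**Figure D2:**
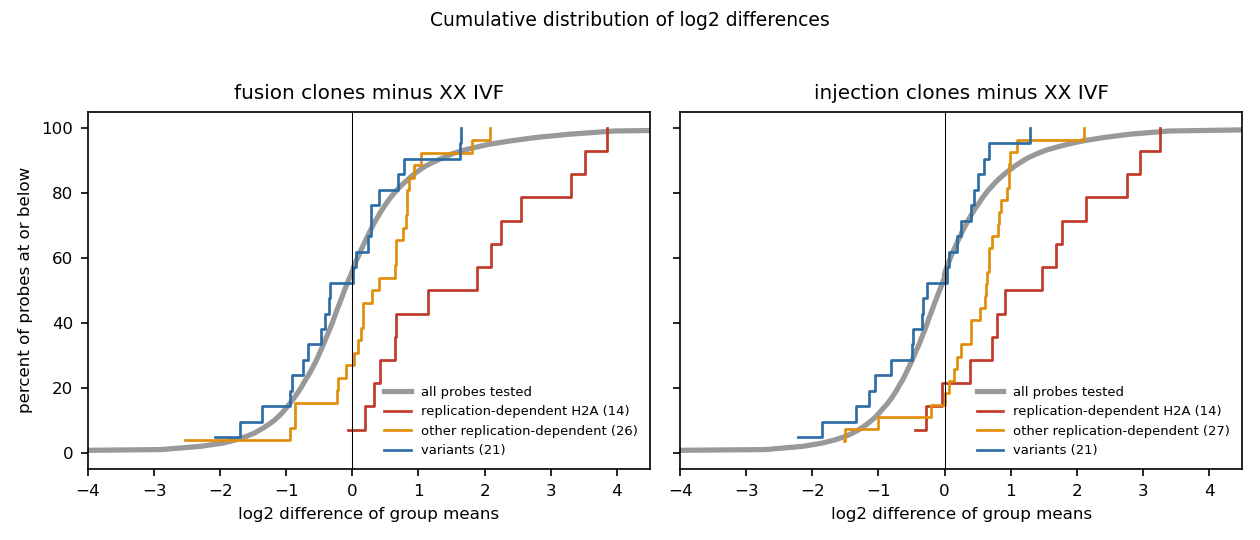
Cumulative percent of probes (y axis) at or below a log2 difference from XX IVF embryos (x axis), for fusion clones on the left and injection clones on the right. The red step line of replication-dependent H2A lies to the right of all probes tested (grey) over most of its range, with medians of 1.52 and 1.20, and the blue line of variants stays near the grey.

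H2A, the core histone that pairs with H2B, held all of the replication-dependent probes called against XX embryos. The H2B probe Hist1h2bc A_51_P462311 was also called in injection clones with normexp background (adjusted p = 0.0465) and with only probes above background on every array of a group (adjusted p = 0.0390). The median H2A difference was 1.52 in fusion clones (13 of 14 tested probes above 0) and 1.20 in injection clones (11 of 14). The widest difference belonged to a Hist1h2af probe, A_52_P498210. It read 11.58, 12.66, 12.92 and 11.43 in fusion clones and 11.87, 11.91, 12.15 and 10.28 in injection clones. In XX embryos it read 8.17, 9.10 and 7.60, and in XY embryos 10.78, 10.96 and 9.70. Every clone was above every XX embryo, while the lowest injection clone lay within the XY range. The difference was 3.86 in fusion clones (SE 0.52, 14.5-fold, adjusted p = 0.0121) and 3.26 in injection clones (SE 0.57, 9.61-fold, adjusted p = 0.0428).

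Hist1h2ai and Hist1h2ak, canonical H2A genes of the same large cluster, gave similar values. The Hist1h2ai probe read 10.63, 11.51, 11.78 and 10.57 in fusion clones, 10.80, 10.83, 11.21 and 9.43 in injection clones, 9.52, 9.88 and 8.49 in XY and 7.77, 8.26 and 7.40 in XX embryos. It rose by 3.31 (SE 0.39, adjusted p = 0.00834) in fusion clones and by 2.76 (SE 0.47, adjusted p = 0.0407) in injection clones. The Hist1h2ak probe, which averaged 11.92, 11.36 and 8.4 in fusion clones, injection clones and XX embryos, rose by 3.52 (SE 0.45, adjusted p = 0.0100) and 2.96 (SE 0.54, adjusted p = 0.0452). For both genes no clone overlapped the XX embryos.

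Outside that cluster, Hist2h2aa1 read 8.97, 8.97, 9.12 and 8.45 in fusion clones, 8.32, 8.46, 9.07 and 7.99 in injection clones, 7.13, 7.51 and 6.25 in XY and 6.67, 6.80 and 5.51 in XX embryos. All 8 clones were above all 6 IVF embryos. The difference from XX embryos was 2.55 (SE 0.36, adjusted p = 0.0141) and 2.13 (SE 0.41, adjusted p = 0.0490). Its promoter, shown above, held CCAAT boxes but neither of the other motifs.

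Hist1h2aa encodes TH2A, an H2A known from testis and oocyte that acts with the TH2B of Hist1h2ba. Its probe read 15.97, 16.31, 16.37 and 15.73 in fusion clones, 15.94, 15.75, 16.07 and 14.73 in injection clones, 15.19, 15.66 and 13.98 in XY and 13.86, 14.13 and 13.57 in XX embryos. The clones did not overlap the XX embryos, and injection clone 4 lay inside the XY range. The difference was 2.24 (SE 0.24, 4.73-fold, adjusted p = 0.00599) in fusion clones and 1.77 (SE 0.36, 3.41-fold, adjusted p = 0.0549) in injection clones, where it did not pass the test. Hist1h2ba, which shares its promoter region, differed by 0.82 (adjusted p = 0.4) and 0.81 (adjusted p = 0.441). It read 9.63, 7.66, 8.45 and 8.18 in fusion clones, 8.20, 7.45, 8.99 and 9.25 in injection clones, 9.36, 8.36 and 7.27 in XY and 8.54, 7.30 and 7.13 in XX embryos, so that all groups overlapped.

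Of the other called H2A probes, Hist2h2ac differed by 2.10 (SE 0.22, adjusted p = 0.00587) in fusion and 1.69 (adjusted p = 0.0582) in injection clones. The brighter Hist1h2af probe, A_52_P165633, differed by 1.88 (SE 0.24, adjusted p = 0.00986) and 1.47 (adjusted p = 0.0643). One of the 3 Hist3h2a probes, A_52_P184352, differed by 1.15 (SE 0.22, adjusted p = 0.0286) and 0.92 (adjusted p = 0.165). The probe A_52_P615375, on the same strand in the array files, differed by 0.19 in fusion clones. The probe A_51_P441377 lies on the opposite strand there and differed by 0.41. The same-strand probes thus disagreed. The call on A_52_P184352 was lost when any fusion clone or XX embryo 1 or 3 was left out (adjusted p 0.0596 to 0.0775). Not every H2A probe was high: Hist1h2ab differed by 0.33 and -0.28, and Hist1h2ae by 0.65 and 0.80, none of which passed the test. Hist1h2ac and both Hist2h2aa2 probes were at or near the floor on most arrays.

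On the 8 called H2A probes the XY means lay between those of fusion clones and XX embryos. Against XX embryos, the XY embryos had a median H2A difference of 0.77 over 13 tested probes, and the Hist1h2af probe A_52_P498210 differed by 2.19 (adjusted p = 0.464). No histone probe was called between XY and XX embryos, where 0.0593% of 32046 probes were called. In limma, 5 of 39 replication-dependent and 1 of 20 variant probes had an unadjusted p below 0.05, as had 2488 of all 32046 probes. Measured against XY embryos, fusion clones had a called difference for Hist2h2aa1 alone among H2A probes, of 1.91 (SE 0.34, adjusted p = 0.0297). Hist1h2ak differed by 1.77 (adjusted p = 0.0746), Hist1h2ai by 1.83 (adjusted p = 0.0629) and Hist1h2aa by 1.15 (adjusted p = 0.148). In injection clones Hist2h2aa1 differed from XY embryos by 1.5 (adjusted p = 0.0785). The Hist2h2ac probe, which the array files place beside it, differed from XY embryos by 1.09 in fusion clones (adjusted p = 0.164). In injection clones that probe differed by 0.68 (adjusted p = 0.482) and overlapped the XY embryos. Of all probes, 3.3% were called higher and 4.3% lower than in XY embryos in fusion clones, and 2.29% and 2.82% in injection clones. For every H2A gene but Hist2h2aa1 the calls were thus made against the XX embryos only.

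**Figure D3:**
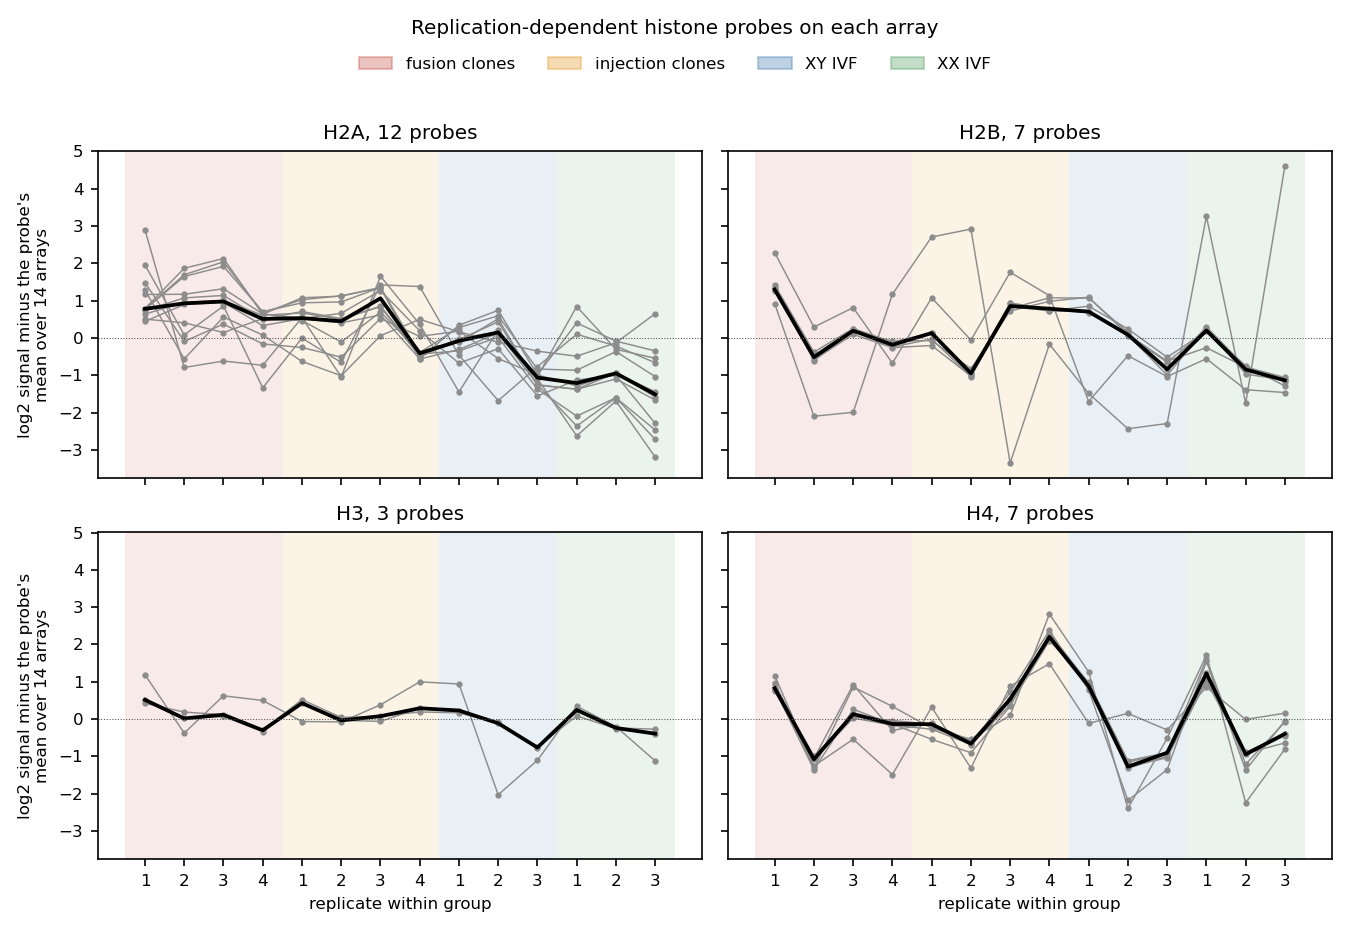
Log2 signal of each replication-dependent probe above background on all arrays, minus the mean of that probe over 14 arrays (y axis), on each array (x axis, replicate within group), with 1 panel per core histone. Grey lines are probes, black lines their median, and shading marks the group. The H2A median lies below 0 in every XX embryo, in XY embryos 1 and 3 and in injection clone 4, while H4 rises and falls within every group and peaks in injection clone 4.

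Several H2A probes moved in parallel from array to array although they are named for genes on different chromosomes. The difference between the Hist1h2aa and Hist2h2ac probes had an SD of 0.088 over the 14 arrays, against a median SD of 1.03 for a single H2A probe over the same arrays. The corresponding SD was 0.134 for Hist1h2ak and Hist1h2ai, and 0.189 for Hist1h2ak and Hist1h2af A_52_P498210. The variant probe H2afj A_52_P407692 and Hist1h2af A_52_P165633 differed with an SD of 0.187. Over all 66 pairs of H2A probes above background everywhere the median SD was 0.940, so close parallels were confined to some pairs. Shared mRNA binding by near-identical probes and parallel change of separate genes cannot be told apart here.

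H2B, the partner of H2A, had no called probe in limma, with 1 of 10 probes at an unadjusted p below 0.05 in each clone comparison. Over all probes, 8838 of 32458 had such a p in fusion clones and 7604 of 32840 in injection clones. The H2B medians were 0.80 and 0.77, with 8 of 10 probes above 0 in both. The brightest H2B probe, Hist1h2bc A_51_P462311, read 13.47, 11.48, 12.00 and 10.51 in fusion clones, 12.27, 11.13, 12.95 and 12.32 in injection clones, 9.48, 10.71 and 10.15 in XY and 10.63, 9.80 and 9.72 in XX embryos. Injection clones lay above all IVF embryos, and 1 fusion clone fell among them. The differences from XX embryos were 1.81 (SE 0.69, adjusted p = 0.154) and 2.11 (SE 0.47, adjusted p = 0.0643). Hist3h2ba was the most variable member, from 4.84 to 12.81 over the arrays, with a difference of -2.54 (SE 1.70) in fusion clones.

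H3 and H4, which form the inner tetramer of the nucleosome, had no called probe and no probe at an unadjusted p below 0.05 in either clone comparison. Over all probes, 8838 of 32458 had such a p in fusion clones and 7604 of 32840 in injection clones. The brightest H3 probe, Hist2h3c1, read 16.02, 15.79, 15.72 and 15.30 in fusion clones, 16.12, 15.64, 15.68 and 15.79 in injection clones, 15.77, 15.49 and 14.85 in XY and 15.69, 15.35 and 15.21 in XX embryos. It differed by 0.29 (SE 0.23, adjusted p = 0.455) and 0.40 (SE 0.19, adjusted p = 0.276), small shifts with overlapping groups. The brightest H4 probe, Hist1h4f, read 12.41, 10.60, 11.65 and 11.55 in fusion clones, 11.45, 11.00, 12.13 and 13.74 in injection clones, 12.43, 10.27 and 10.59 in XY and 12.60, 10.64 and 11.14 in XX embryos. Its difference of 0.09 (SE 0.59, adjusted p = 0.933) and 0.62 (SE 0.78, adjusted p = 0.641) was within the spread of every group.

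The H4 probes moved together from array to array within every group. The median SD of the difference between H4 probes was 0.520 over 21 pairs, against 1.01 for a single H4 probe and 1.44 for the difference between an H2A and an H4 probe over 84 pairs. Hist2h4 and Hist1h4f, named for different clusters, differed with an SD of 0.074. For H4 too, shared mRNA binding by near-identical probes and parallel change of separate genes cannot be told apart. The mean deviation of the 7 H4 probes was 2.20 in injection clone 4, 1.29 in XX embryo 1, -1.16 in fusion clone 2 and -1.33 in XY embryo 2. Injection clone 4, the highest for H4, had the lowest mean deviation for H2A among the 8 clones (-0.08).

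The replication-dependent linker histones had no called probe against XX embryos. Medians were 0.40 over 6 tested probes in fusion and 0.62 over 7 in injection clones. The brightest, Hist1h1c, read 14.20, 10.46, 11.85 and 9.02 in fusion clones, 10.53, 9.96, 12.10 and 10.60 in injection clones, 11.96, 12.05 and 11.36 in XY and 13.61, 11.75 and 11.62 in XX embryos. The fusion clones alone spanned the range of all groups, and the differences were -0.94 (SE 1.24, adjusted p = 0.635) and -1.53 (SE 0.69, adjusted p = 0.252). One Hist1h1d probe, A_52_P10683, was not well above background in any XY embryo, and averaged 6.49 in fusion clones, 6.5 in injection clones and 6.36 in XX embryos. Its excess over XY embryos was at least 5.63-fold in fusion clones (adjusted p = 0.00887) and at least 5.65-fold in injection clones (adjusted p = 0.0324). All XY embryos were at the floor, so both folds and their p depend on the floor. From XX embryos the clones differed by 0.13 and 0.14.

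Among the variants, both genes for H3.3, the H3 placed into chromatin outside replication by HIRA and by DAXX with ATRX, had called probes in fusion clones, in opposite directions. Of 21 variant probes tested, 2 were lower (both H3f3a) and 2 were higher (H3f3b and H2afj). Over all probes tested in fusion clones, 4.32% were called higher and 5.17% lower. The H3f3a probe A_52_P1041253 read 13.53, 13.15, 13.26 and 13.02 in fusion clones, 12.05, 12.85, 13.59 and 13.72 in injection clones, 13.96, 14.05 and 13.69 in XY and 14.28, 14.26 and 14.02 in XX embryos. All clones lay below the XX embryos. The difference was -0.95 (SE 0.18, adjusted p = 0.0306) in fusion clones and -1.14 (SE 0.43, adjusted p = 0.186) in injection clones. The second probe, A_52_P76734, 9299 bases away in the coordinates of the array files, gave -0.91 (SE 0.19, adjusted p = 0.0370) and -1.05 (adjusted p = 0.195). The H3f3a probe A_51_P456237 was marked as an outlier spot on 5 of the 6 IVF arrays and was not tested against XX embryos. It read 16.85 to 17.12 in fusion clones, 16.37 to 17.41 in injection clones and 16.74 in the 1 XY embryo left.

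H3f3b, which encodes the same H3.3 protein, read 18.27, 18.39, 18.34 and 18.12 in fusion clones, 18.54, 18.32, 18.05 and 18.09 in injection clones, 17.47, 17.36 and 17.53 in XY and 17.62, 17.51 and 17.63 in XX embryos on the probe A_51_P164667. All 8 clones lay above all 6 IVF embryos. The difference from XX embryos was 0.69 (SE 0.15, adjusted p = 0.0387) and 0.67 (SE 0.16, adjusted p = 0.0773), and that from XY embryos 0.82 (adjusted p = 0.0325) and 0.80 (adjusted p = 0.05, below the threshold before rounding). The other H3f3b probe, A_52_P61786, differed from XX embryos by 0.29 (adjusted p = 0.500) and 0.40 (adjusted p = 0.322). The H3f3b call against XX embryos was lost when any library was left out, and under scaling to the 75th percentile of each array (adjusted p = 0.132). The H3f3a calls were lost without any single library (adjusted p 0.0534 to 0.0972), except that A_52_P1041253 was still called without fusion clone 1 (adjusted p = 0.0483).

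**Figure D4:**
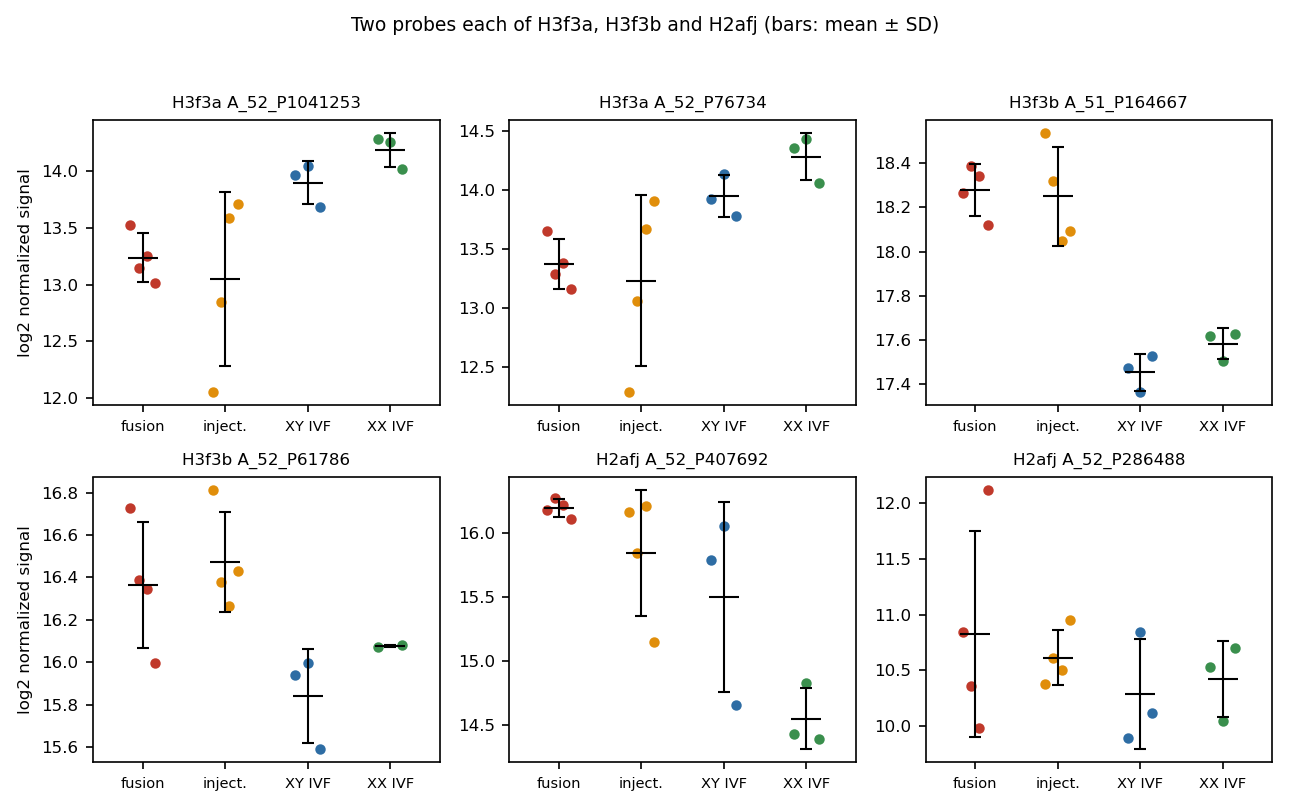
Log2 normalized signal (y axis) of 2 probes each for H3f3a, H3f3b and H2afj in the 4 groups (x axis). Points are arrays and bars are the mean ± SD. Both H3f3a probes are lower in clones than in XX IVF embryos, H3f3b A_51_P164667 is higher in all clones than in all IVF embryos, and the H2afj probes disagree.

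H2afj, which encodes the H2A variant H2A.J, had 2 probes that disagreed. A_52_P407692 read 16.18, 16.27, 16.22 and 16.11 in fusion clones, 16.17, 15.85, 16.21 and 15.15 in injection clones, 15.79, 16.06 and 14.66 in XY and 14.43, 14.83 and 14.39 in XX embryos. It rose by 1.65 in fusion clones (SE 0.17, adjusted p = 0.00586) and was 1.29 higher in injection clones (SE 0.30, adjusted p = 0.0695). The other probe, A_52_P286488, lay 1238 bases away in the array files and differed by 0.40 (SE 0.52, adjusted p = 0.626) and 0.19 (SE 0.22, adjusted p = 0.623). It is the first of these probes that ran parallel to Hist1h2af A_52_P165633. Which mRNA it measured was not tested.

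No probe of the H2A.Z genes H2afz and H2afv was called. H2afz A_52_P468268 differed by 0.24 (SE 0.22) and 0.25 (SE 0.21) and H2afv by 0.28 (SE 0.21) and 0.07 (SE 0.22). A second probe named H2afz, A_51_P107901, is placed on another chromosome in the files and was at the floor on all but 3 arrays. H2afx, whose protein is phosphorylated beside DNA breaks, differed by -0.34 (SE 0.22) and -0.34 (SE 0.29). The 3 probes of H2afy, which encodes macroH2A1, a variant enriched on the inactive X chromosome, differed by 0.01, 0.05 and 0.77 in fusion and by -0.48, -0.49 and 0.50 in injection clones. One of them, A_52_P179238, was lower in injection clones than in XY embryos, with a difference of -1.28 (adjusted p = 0.0386). H2afy2, the macroH2A2 gene, was near the floor throughout, with differences of -0.42 (adjusted p = 0.502) and -0.82 (adjusted p = 0.0733). H2afy3, listed by RefSeq as a transcribed pseudogene, differed by -2.07 (SE 1.08, adjusted p = 0.277) and -2.22 (SE 1.01, adjusted p = 0.254).

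Among the variant linker histones, H1fx had 2 probes that disagreed on the order of the IVF embryos. The probe A_52_P748854 was highest in XY embryos and read 8.13, 8.89, 8.31 and 8.24 in fusion clones, 7.86, 7.53, 8.48 and 9.81 in injection clones, 12.01, 11.84 and 11.08 in XY and 9.68, 10.86 and 8.73 in XX embryos. Both kinds of clone lay below all XY embryos, with differences of -3.25 (SE 0.31, adjusted p = 0.00764) and -3.22 (SE 0.59, adjusted p = 0.0390). They overlapped the XX embryos, with differences of -1.37 (adjusted p = 0.144) and -1.34 (adjusted p = 0.324). The dimmer H1fx probe, A_51_P114843, averaged 5.20 in XY and 5.85 in XX embryos, and was at the floor in every injection clone. Injection clones were lower than XY embryos (-1.20, adjusted p = 0.0299), a difference whose size and p depend on the floor. Fusion clones, at or near the floor, did not pass against XY embryos (-1.06, adjusted p = 0.0566). H1f0, the linker histone of differentiated cells, differed by -0.75 (SE 0.48) and -0.26 (SE 0.35) on its bright probe A_52_P442234, and its other probes, 273 and 279 bases away, were near the floor. H1fnt, a spermatid linker histone, was at the floor in all fusion clones and reached 8.70 in injection clone 2 only.

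No histone probe was called between fusion and injection clones, which does not show that they are alike. None of the 42 replication-dependent and 22 variant probes tested in limma was called, as was 0% of 32303 probes. An unadjusted p below 0.05 was found for 0 replication-dependent and 1 variant probe, and for 1993 of all 32303 probes. The smallest adjusted p was 0.703, for H2afy A_52_P141583, with a difference of 0.50 (SE 0.15). Next were Hist1h1e (1.23, SE 0.54) and H2afy A_52_P402989 (0.27, SE 0.14). The median difference was 0.01 over replication-dependent probes, 0.41 over H2A probes (12 of 15 above 0) and -0.50 over H4 probes (7 of 7 below 0). Differences ranged from -1.10 to 1.23 over replication-dependent probes, with 4 arrays in each group.

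The genes that supply histones were followed in 4 lists. In the list for transcription of histone genes, 4 of 17 probes were higher in fusion clones than in XX embryos and 1 was lower, with a median of 0.37. In injection clones 0 were higher and 1 lower, with a median of 0.11. The shares called over all probes, against which the counts of each list are to be read, were 4.32% higher and 5.17% lower in fusion clones and 1.53% and 2.14% in injection clones. Npat, the coactivator of clustered histone genes that CDK2 with cyclin E switches on, read 10.92, 10.68, 10.84 and 10.95 in fusion clones, 10.77, 10.26, 10.44 and 9.58 in injection clones, 9.39, 10.90 and 10.59 in XY and 9.07, 9.38 and 9.10 in XX embryos on probe A_52_P397944. It rose by 1.66 (SE 0.16, adjusted p = 0.00495) in fusion clones and differed by 1.08 (SE 0.30, adjusted p = 0.0991) in injection clones. Its dimmer probe rose by 1.95 (adjusted p = 0.0397) and differed by 1.63 (adjusted p = 0.318). The clones were above the XX embryos on A_52_P397944 but overlapped the XY embryos.

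Several of these genes had probes that disagreed. For Cdk2, the kinase that activates NPAT, the probe A_51_P266521 fell in both kinds of clone, with differences of -1.52 (SE 0.30, adjusted p = 0.0306) and -1.5 (SE 0.25, adjusted p = 0.0396), while the probe A_52_P651298 differed by 0.89 in fusion clones (SE 0.48, adjusted p = 0.291). For Pou2f1, which encodes the octamer-binding factor Oct1, one probe rose by 1.28 (SE 0.24, adjusted p = 0.0280) in fusion clones but differed by -0.59 from XY embryos, and the other differed by -0.35 from XX embryos (adjusted p = 0.671). E2f1, an activator of S phase genes, on its probe A_52_P587611 read 12.96, 13.12, 13.27 and 12.64 in fusion clones, 13.11, 13.04, 13.06 and 12.17 in injection clones, 12.01, 11.69 and 11.91 in XY and 11.60, 11.83 and 11.93 in XX embryos. All clones were above all IVF embryos. The difference from XX embryos was 1.21 (SE 0.21, adjusted p = 0.0222) and 1.06 (adjusted p = 0.0866), and the other E2f1 probe differed by 0.37 in fusion clones (adjusted p = 0.572).

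In the list for histone mRNA 3′ end formation and decay, 4 of 33 probes were higher in fusion clones, 0 were lower and the median was 0.02. Slbp, the gene for the stem-loop binding protein, differed by -0.16 (SE 0.17, adjusted p = 0.569) and -0.33 (SE 0.15, adjusted p = 0.263). Casp8ap2, which encodes the FLASH protein of the 3′ processing complex, differed by -0.52 (adjusted p = 0.209) and -0.62 (adjusted p = 0.210). The probes that rose were those of Zcchc11 (Tut4) and Zcchc6 (Tut7), uridylyltransferases that tag RNAs for decay, and of the cleavage factor gene Cpsf2. The called Zcchc11 probe was not well above background in XX embryos and read at the floor in all of them. Fusion clones exceeded them at least 6.67-fold (adjusted p = 0.00517), a fold and p that depend on the floor. The 2 other probes of that gene differed by -1.16 (adjusted p = 0.137) and -1.19 (adjusted p = 0.0859). One Cpsf2 probe rose by 1.53 (SE 0.23, adjusted p = 0.0160), and its others differed by 1.39 (adjusted p = 0.186) and -0.50 (adjusted p = 0.203). The Zcchc6 probes differed by 1.88 (adjusted p = 0.0252), 0.93 (adjusted p = 0.0283) and 0.44 (adjusted p = 0.231). In injection clones, 0 of 32 probes were called in limma, with 11 at an unadjusted p below 0.05 and a median of -0.07. Of all 32840 probes, 7604 had such a p there.

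In the list for histone chaperones and exchange, 5 of 52 probes were higher and 1 lower in fusion clones, with a median of 0.03, and 0 of 50 were higher and 2 lower in injection clones, with a median of -0.06. The probe A_51_P449624 named 6430706D22Rik, which RefSeq gives as Hjurp, the chaperone of the centromeric H3, was at the floor in all XX embryos, and fusion clones exceeded it at least 119-fold (adjusted p = 0.000971). That fold and its p depend on the floor. The probe was also at the floor in injection clone 4 and XY embryo 3 and between 9.57 and 11.71 on every other array. Of the 5 other probes of that gene, A_52_P68674 rose by 1.55 (adjusted p = 0.0360) in fusion clones and the rest differed by -0.18 to 0.48. The probes of Cabin1, a partner of HIRA, disagreed: A_51_P189722 fell in both kinds of clone (-1.60, adjusted p = 0.00587, and -1.34, adjusted p = 0.0333), and A_52_P423384 rose in fusion clones (3.87, adjusted p = 0.00565). Ubn1, another HIRA partner, rose on 2 of 3 probes in fusion clones (2.71, adjusted p = 0.0298, and 1.65, adjusted p = 0.00884). Chaf1a, a subunit of the CAF-1 complex that places H3 and H4 during replication, fell by 0.80 (SE 0.12, adjusted p = 0.0324) in injection clones.

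Most probes of S phase genes were lower in clones than in XX embryos, and few passed the test. Of 28 tested probes, 25 were below 0 in fusion clones, with a median of -0.47, 0 called higher and 2 called lower, where 18289 of all 32458 probes were below 0 and 5.17% were called lower. Of 27 tested in injection clones, 24 were below 0, with a median of -0.56 and 1 called lower, where 18140 of all 32840 probes were below 0 and 2.14% were called lower. The called counts were thus near the share over all probes. Mcm2, a subunit of the replicative helicase, fell in both kinds of clone, with differences of -1.01 (SE 0.16, adjusted p = 0.0182) and -0.90 (SE 0.17, adjusted p = 0.0461). Mcm3, another helicase subunit, fell by 1.18 (SE 0.27, adjusted p = 0.0437) on one probe in fusion clones, and its other probe differed by -0.62 (adjusted p = 0.273).

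**Figure D5:**
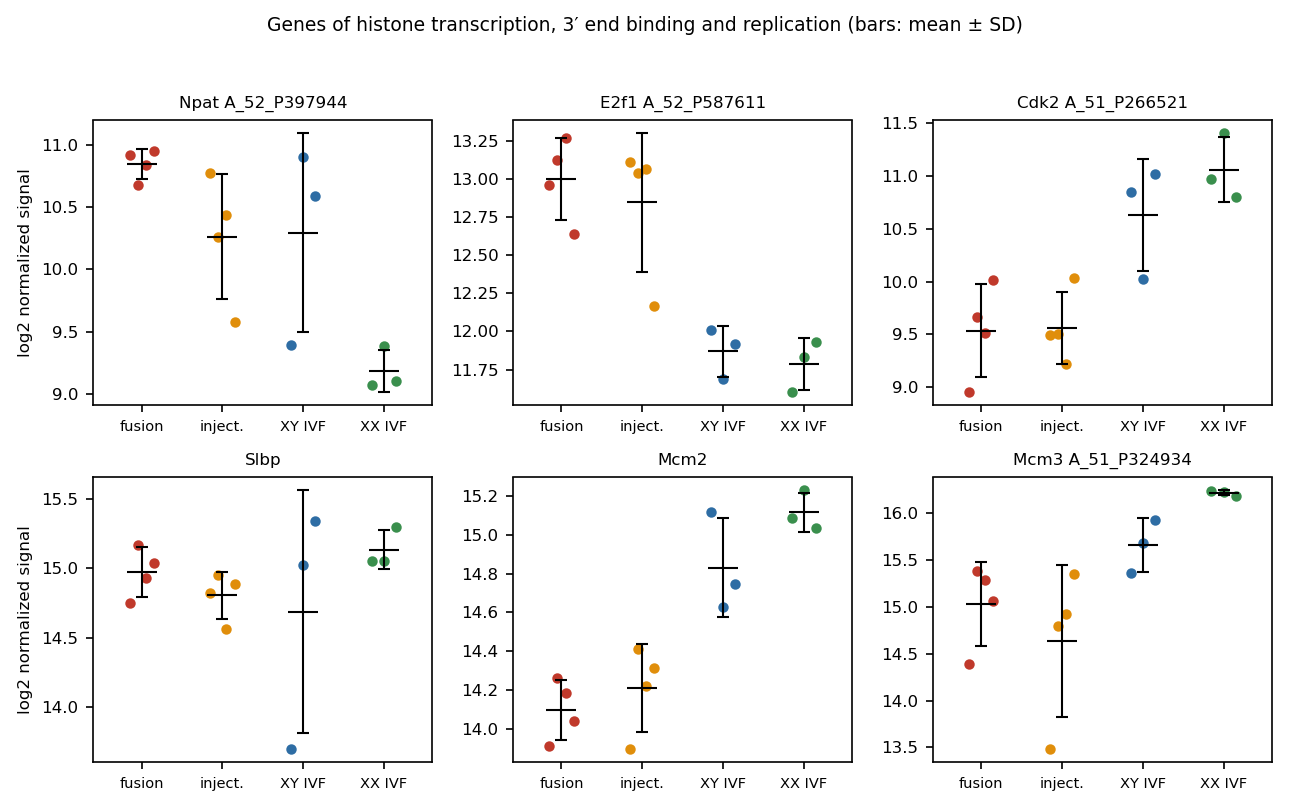
Log2 normalized signal (y axis) of 6 genes of histone supply in the 4 groups (x axis). Points are arrays and bars are the mean ± SD. E2f1 A_52_P587611 is higher in all clones than in all IVF embryos, Mcm2 is lower in all clones than in all IVF embryos, and the Slbp means of fusion clones and XX embryos differ by 0.16.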

How the data were processed

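RNA of 14 blastocyst samples was measured on 1-colour arrays. The authors deposited the scanner output of Agilent Feature Extraction (version 10.5.1 in the submitters' processing notes) with spot intensities on a linear scale, background-subtracted and not normalized between arrays, and a log2 table for these arrays, shifted per array (column medians -0.22 to 0.16) and centred per probe, whose scale of centring is not stated. The dim spots of the IVF arrays include intensities below 0 and those of the clone arrays do not.

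Control spots were left out, outlier spots (101 to 338 per array) were set to missing, and 1 saturated spot was kept. The processed intensities of 43379 gene spots were quantile-normalized over the arrays, raised to a floor of 16, taken to log2 and then averaged per probe. Probes that any array of the 2 groups showed well above background were tested with lmFit and eBayes of limma 3.58.1 in R 4.3.3, with the groups taken from the labels, and with Benjamini-Hochberg adjustment over all probes tested. The code was tested on simulated data. Where at least N-fold is written, the dim group was well above background on no array. It was set at the floor of 16, or at its own value where that was higher. The lowest value above background was at that floor on every array. These folds and their p-values thus depend on the floor chosen.

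The members, the 4 gene lists and the alternatives were chosen with earlier results of these data known, and no p-value is given for a list. Genes were named by rule: all variant probes, the brightest replication-dependent probe of each type, up to 5 called rises and falls per comparison, the 2 most changed called probes of each list in each direction, and Slbp, Npat and Casp8ap2. The other H2A, H2B and H1 probes named, E2f1 and Pou2f1 with the other called list probes, and the pairs of parallel probes were chosen after their values were seen. Promoters came from RefSeq tables of GRCm38.p6. Replicate numbers were checked for pairing by the correlation of deviations from the group means over 17478 probes. Between XY and XX embryos the correlations were 0.146, 0.172 and 0.171, and each XY embryo correlated best with the XX embryo of the same number. The main test did not treat equal numbers as pairs and called no histone probe between these embryos. An alternative fit that did so called none either, which does not show that pairing is without effect. The labels do not pair the samples. Alternatives varied the scaling, background, floor, filter, fit, controls, call rule and libraries.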

Additional observations from a re-analysis of the deposited data

Results flagged for a closer look

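In groups of 4 clones, 9 of 96 sets of values held 1 sample far from the other 3. For independent sets chance gives about 1 in 20. The sets share arrays and include called probes and probes that ran in parallel, so the count cannot be read as an excess over chance. Of the 9 distant samples, 6 were injection clone 4. Its Hist1h2ak probe (A_52_P498208) read 10.06, against 11.65 to 11.97 in the other injection clones, and its Hist1h2af probe (A_52_P498210) read 10.28, against 11.87 to 12.15. The same clone read 12.17 for E2f1 (others 13.04 to 13.11), 12.34 for Casp8ap2 (others 11.66 to 11.74), 7.52 for H2afy A_52_P179238 (others 8.02 to 8.04) and 4, the floor, for 6430706D22Rik (others 10.39 to 11.57). Injection clone 1 read 16.37 for H3f3a A_51_P456237 (others 17.33 to 17.41) and 17.51 for H2afz A_52_P468268 (others 17.23 to 17.25). Fusion clone 4 read 6.88 for the Hjurp probe A_52_P68674, named A730008H23Rik in the files (others 7.51 to 7.61). Without injection clone 4, 6 replication-dependent probes were called in injection clones in place of 4.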

How the results depend on the processing

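The median of the replication-dependent probes stayed positive under every alternative run. It went from 0.35 (normexp background) to 0.91 (deposited log2 values) in fusion clones. In injection clones it went from 0.41 (replicate block) to 0.85 (deposited log2 values). Each shift was smaller than the SD of array medians within groups, which is a wide margin. Over all 44 member probes the array median ran from 7.71 to 9.56 in fusion clones and from 7.60 to 8.47 in XX embryos. The deposited values moved the median of all probes from -0.12 to 0.05 and from -0.08 to 0.07, and the share of calls that were higher from 45.5% to 62.5% and from 41.7% to 64.1%. The count of 8 replication-dependent calls in fusion clones was 7 to 8 when single libraries were left out and 0 with a replicate block. Against XY controls it was 2, for Hist2h2aa1 and for the H1 probe Hist1h1d A_52_P10683. The 4 variant calls there became 1 with a floor of 1, 2 with all groups in one fit, 2 with the brightest probe of a gene, 2 against XY controls, 2 at the methods' threshold (unadjusted p below 0.05 and 2-fold), 0 with a replicate block and 1 to 2 without single libraries. The 4 replication-dependent calls in injection clones became 8 with normexp background, 8 with probes above background on every array of a group, 8 at the methods' threshold and 7 with all groups in one fit. They became 2 with the deposited values, 1 with a floor of 32, and 0 with a floor of 1, with no filter on dim probes and with a replicate block. Against XY controls 1 probe was called, Hist1h1d A_52_P10683, and no H2A probe. Of all probes, 3.67% were called in the main fit, 4.57% with normexp background and 8.35% with probes above background on every array of a group. Leaving out single libraries gave 0 to 6, with 0 without injection clone 1, 2 or 3 or any XX embryo. The 0 variant calls in injection clones became 2 with all groups in one fit (9.43% of all probes called) and 4 against XY controls (5.1%). They became 3 at the methods' threshold and 0 to 1 without single libraries. The methods' threshold gave 6 histone calls between XY and XX embryos. No share over all probes was taken at that threshold. The replicate block left 0 calls among all probes in both clone comparisons. Samples with equal replicate numbers correlated at -0.12 to 0.17 there and between fusion and injection clones, without a steady sign, and the labels do not pair them. Median differences of the lists moved as follows. In fusion clones, chaperones went from 0.03 to 0.19 (deposited values) and -0.22 (brightest probe), and S phase genes from -0.47 to -0.27 (XY controls). In injection clones, 3′ end genes went from -0.07 to -0.25 (brightest probe), and transcription genes from 0.11 to 0.26 (75th percentile scaling), 0.29 (deposited values), 0.22 (floor of 32), 0.20 (above background on every array of a group), -0.032 (XY controls) and -0.014 to 0.25 (without single libraries). Pou2f1 reversed against XY controls, to -0.59. The cause of these shifts was not tested. An alternative without probes that share sequence was not run, since probe sequences were not used here.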
